A study of Mus musculus with 2 samples.

Results

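The chemokine axis examined here consists of 5 genes: the ligands Cxcl12, Cxcl14 and Cx3cl1 and the CXCL12 receptors Cxcr4 and Ackr3, the latter called Cxcr7 in older releases. They were chosen by name and matched by Ensembl identifier, and they are 5 of 21474 protein-coding genes and of 43346 genes in all. Total RNA longer than 200 nt was taken from the forebrain of healthy mice of strain B6NTac;B6NCrl/Lap on the day of birth (0 days), with males and females pooled, depleted of ribosomal RNA, and sequenced as stranded read pairs. The 2 libraries form 1 group. Replicate 1 came from 15 mice, and replicate 2 from a pool of unstated size. They are labelled as biological replicates from separate isolates, yet they carry 1 donor identifier in common, and SDs and tests describe only how these 2 libraries differ. No treatment, genotype or time is compared.

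CXCL12 is secreted by meningeal and other cells of the developing forebrain and guides migrating cells that carry CXCR4, among them cortical interneurons, Cajal-Retzius cells and granule cell precursors of the dentate gyrus. CXCR4 signals through inhibitory G proteins, whereas ACKR3 binds the same ligand, recruits arrestin and removes CXCL12 from the extracellular space, which sets how much ligand reaches CXCR4. CXCL14 is a chemokine whose binding to CXCR4 and interplay with CXCL12 have been described, without a settled receptor of its own. CX3CL1, or fractalkine, is a membrane-anchored chemokine of neurons that proteases can shed, and its receptor CX3CR1 marks microglia in the brain.

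The spacing of a pair of cysteines sorts the ligands, and it is shown because it divides these 3 genes into families. Cxcl12 and Cxcl14 each have 1 codon between a pair of cysteine codons, the CXC arrangement, and Cx3cl1 has 3. The stretches below are coding sequence of the mm10 assembly, 5′ to 3′, with the cysteine codons in capitals. They lie at chr6:117171490-117171534 (plus strand), chr13:56295897-56296119 (minus strand, with an intron spliced out) and chr8:94778033-94778083 (plus strand). The first cysteine codon of this pair is codon 30 of Cxcl12, codon 25 of Cxcl14 and codon 32 of Cx3cl1.
Cxcl12: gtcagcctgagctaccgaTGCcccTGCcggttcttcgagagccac
Cxcl14: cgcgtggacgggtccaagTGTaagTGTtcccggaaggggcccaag
Cx3cl1: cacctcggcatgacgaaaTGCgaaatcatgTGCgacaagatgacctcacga

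The receptors are compared at the end of the third transmembrane helix, where G-protein-coupled chemokine receptors carry an Asp-Arg-Tyr motif followed by residues that contact the G protein. Both coding sequences hold the 3 codons of this motif, from codon 135 in Cxcr4 and from codon 141 in Ackr3. Over the 10 codons shown, 4 encode different residues, and these are in capitals. The stretches lie at chr1:128589491-128589520 (minus strand) and chr1:90214241-90214270 (plus strand).
Cxcr4: gaccggtacctcGCTattGTCCACGCCacc
Ackr3: gaccgctatctcTCCatcACCTACTTCacc

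All 5 genes were well above the detection limit in both libraries. Levels are given as coding TPM, the deposited TPM (transcript abundance per length) rescaled so that protein-coding genes sum to 1000000 in each library, and these allow genes to be compared per length. Of all protein-coding genes, 13596 (63.3%) reached 1 coding TPM in both libraries, and so did 5 of 5 axis genes. The libraries held 62516003 and 65912060 expected counts, and a count of 0 allows up to 3 counts. In bulk tissue, fewer cells of a type and less RNA per cell cannot be told apart.

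Among the ligands, Cx3cl1 (chr8:94772009-94782427, plus strand) had the highest level. It stood at 52.9 coding TPM in replicate 1 and 64.5 in replicate 2, a mean of 58.7 ± 8.2 (SD, n = 2), from 3555 and 4672 counts. This placed it at percentiles 81.7 and 84.0 of protein-coding genes. Cxcl12 (chr6:117168535-117181367, plus strand) stood at 25.7 and 30.8 coding TPM, a mean of 28.2 ± 3.59 (SD, n = 2), from 1444 and 1936 counts. Replicate 2 was the higher library for both of these ligands on this scale, and each lay in the upper part of the range of protein-coding genes. Cxcl14 (chr13:56288643-56296551, minus strand) stood at 42.0 coding TPM in replicate 1 and 20.3 in replicate 2, a mean of 31.2 ± 15.4 (SD, n = 2), from 1454 and 758 counts. It was the axis gene whose libraries lay farthest apart, at percentiles 77.8 and 61.8.

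Of the receptors, Cxcr4 (chr1:128588199-128592293, minus strand) stood at 40.2 and 43.3 coding TPM, a mean of 41.7 ± 2.19 (SD, n = 2), from 1148 and 1222 counts. Ackr3 (chr1:90203980-90216751, plus strand) stood at 7.09 and 9.67 coding TPM, a mean of 8.38 ± 1.83 (SD, n = 2), from 437 and 649 counts. The signalling receptor was thus at percentiles 76.8 and 77.0 of protein-coding genes, and the scavenging receptor near the middle, at 49.5 and 51.0. None of the 5 genes overlapped another gene in the annotation, and their gene counts had a posterior SD of 0, so no reads were divided with other genes.

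**Figure D1:**
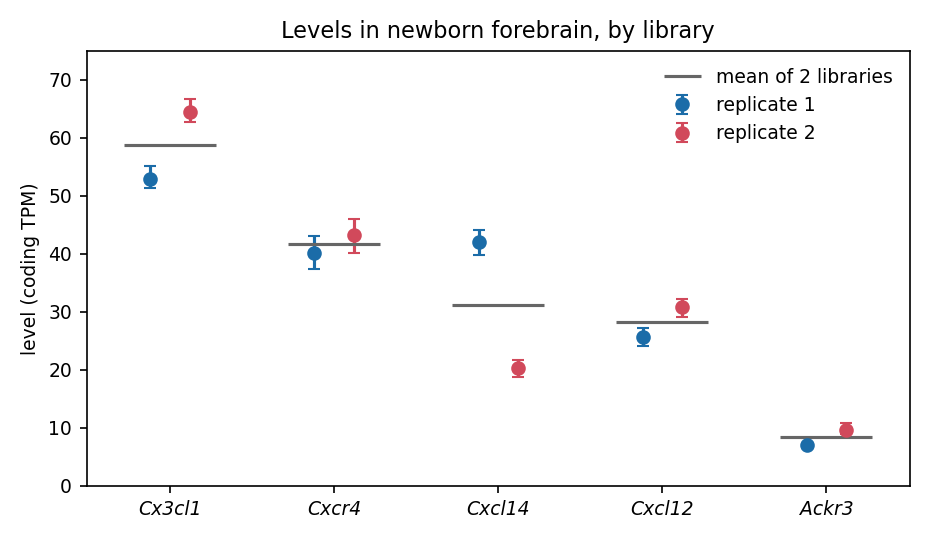
Level of each gene in coding TPM (y axis, linear) in replicate 1 (blue) and replicate 2 (red), with bars for the deposited TPM interval and a grey line at the mean of the 2 libraries. Cx3cl1 is highest and Ackr3 lowest in both libraries, and Cxcl14 is at 42.0 in replicate 1 and 20.3 in replicate 2, while the other 4 genes keep their order.

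The order by mean level was Cx3cl1, Cxcr4, Cxcl14, Cxcl12 and Ackr3. Cx3cl1 exceeded Cxcr4 in both libraries, and Ackr3 was below all others in both. Cxcr4 and Cxcl14 could not be ranked: in replicate 1 their deposited intervals overlapped (37.3 to 43.1 for Cxcr4 and 39.9 to 44.1 for Cxcl14), and in replicate 2 Cxcl14 was at 0.469 of Cxcr4. Cxcl14 and Cxcl12 exchanged places, as Cxcl14 was 1.64 times Cxcl12 in replicate 1 (bounds 1.47 to 1.83, from the deposited intervals of both genes) and 0.659 times Cxcl12 in replicate 2 (0.583 to 0.744). The order of those 2 ligands therefore depended on the library.

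Ratios within a library need no scaling between libraries, and those between the other axis genes kept their order. Cxcr4 exceeded Ackr3 by 5.67-fold in replicate 1 (bounds 4.53 to 6.61) and 4.47-fold in replicate 2 (3.69 to 5.12). Cxcl12 stood at 0.640 of Cxcr4 in replicate 1 (0.561 to 0.728) and 0.711 in replicate 2 (0.631 to 0.801), so there was less ligand than receptor transcript in both. Set against the scavenger, Cxcl12 was 3.63 times Ackr3 in replicate 1 and 3.18 times in replicate 2. Each of these 3 ratios lay on the same side of 1 in both libraries. The Cx3cl1 transcript outnumbered that of its microglial receptor Cx3cr1 by 4.87-fold (4.41 to 5.50) and 4.58-fold (4.21 to 5.08). Cx3cl1 was 2.06 and 2.09 times Cxcl12.

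Cxcl12 was made up of 3 coding forms that differ at the 3′ end of the coding sequence. Cxcl12-202 matches the form known as alpha, Cxcl12-203 beta and Cxcl12-201 gamma, with 89, 93 and 119 codons before the stop. The gamma form is known for a basic tail that binds heparan sulfate tightly. The forms share their first 266 coding bases. The last 30 shared bases are shown in lower case, from chr6:117173549 on the plus strand with introns spliced out, and the bases that are not shared, stop codon included, in capitals (4, 16 and 94 bases).
Cxcl12-202: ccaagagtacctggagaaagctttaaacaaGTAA
Cxcl12-203: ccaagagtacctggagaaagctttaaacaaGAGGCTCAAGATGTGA
Cxcl12-201: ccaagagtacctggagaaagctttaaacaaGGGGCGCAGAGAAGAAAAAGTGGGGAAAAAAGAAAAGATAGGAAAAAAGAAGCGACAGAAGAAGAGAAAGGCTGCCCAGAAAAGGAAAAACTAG

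The alpha form led in both libraries. Cxcl12-202 held 51.1% of the gene's TPM in replicate 1 and 55.3% in replicate 2, or 13.1 coding TPM (deposited interval 11.6 to 14.5) and 17.0 (15.4 to 18.2). Cxcl12-203 held 29.8% and 25.6%, or 7.68 coding TPM (6.76 to 8.56) and 7.85 (6.94 to 8.72). Cxcl12-201, the gamma form, held 13.2% and 18.0%, or 3.40 coding TPM (2.96 to 3.87) and 5.54 (4.99 to 6.01). The order alpha, beta, gamma was the same in both libraries, and the intervals of neighbouring forms did not overlap within a library. Between libraries, the intervals of the beta form overlapped and those of alpha and gamma did not, with replicate 2 higher. A noncoding form with a retained intron, Cxcl12-204, held 5.85% and 1.17%. These intervals cover the division of reads among forms, not the variation between animals, and reads from the shared coding bases do not tell the forms apart.

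Cxcr4 had 2 forms that differ in where the first exon ends. The coding start of Cxcr4-201, which has 359 codons, holds 6 bases that Cxcr4-202 lacks (in capitals, chr1:128592189-128592194, minus strand), so that the predicted amino end differs in length. Both are shown from the start codon, at chr1:128592209, with the intron spliced out.
Cxcr4-201: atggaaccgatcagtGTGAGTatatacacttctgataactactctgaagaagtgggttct
Cxcr4-202: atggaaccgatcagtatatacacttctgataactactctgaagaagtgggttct

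Cxcr4-201 held 71.7% of the gene's TPM in replicate 1 and 59.95% in replicate 2, and Cxcr4-202 held 28.3% and 40.1%. In coding TPM, Cxcr4-201 stood at 28.8 (26.6 to 30.8) and 25.9 (24.0 to 27.7), and Cxcr4-202 at 11.4 (8.56 to 14.4) and 17.3 (14.2 to 20.2). The level intervals of each form overlapped between the libraries, those of Cxcr4-202 only just. Its counts were 163 and 264, with posterior SDs of 17.3 and 16.7, and the division between the forms was not tested. Cxcr4-202 is 902 nt long and is annotated with an incomplete 3′ end, against 1805 nt for Cxcr4-201. Its share enters the gene's mean effective length, which was 1302 nt in replicate 1 and 1175 nt in replicate 2, and through it the gene's TPM. The remaining genes gave nearly all of their TPM to a single form: Ackr3-201 held 100% in both libraries, Cx3cl1-201 100% and 98.9%, and Cxcl14-201 is the 1 transcript listed for Cxcl14.

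**Figure D2:**
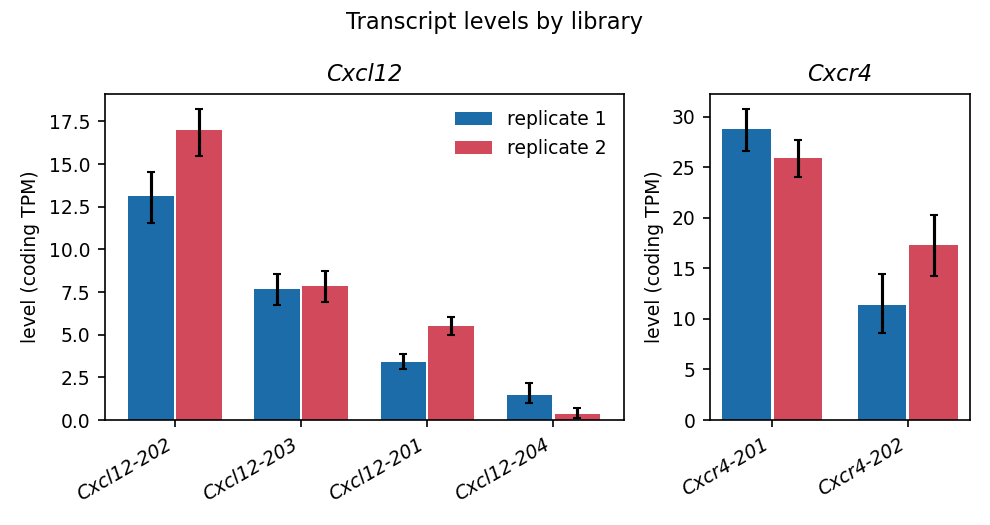
Level in coding TPM (y axes, linear, from 0) of each Cxcl12 transcript (left) and each Cxcr4 transcript (right) in replicate 1 (blue) and replicate 2 (red), with bars for the deposited interval. Cxcl12-202 is the tallest Cxcl12 bar in both libraries (13.1 and 17.0), and the Cxcr4 forms lie closer together in replicate 2 (25.9 and 17.3) than in replicate 1 (28.8 and 11.4).

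The libraries were then compared gene by gene, as the log2 ratio of replicate 2 over replicate 1 of counts after TMM scaling, with a two-sided exact binomial test adjusted by Benjamini-Hochberg over 17536 genes. This test compares the reads of these libraries, not conditions, and its intervals (95%, Clopper-Pearson) cover counting error only. A call needed an adjusted p under 0.05 and at least a 2-fold difference, which 10.3% of genes met, with 5.43% of all genes higher and 4.88% lower in replicate 2. Of the 5 axis genes, 1 was called, and it was lower in replicate 2. At any fold, 65.0% of all genes passed the adjusted p, as did 5 of 5 axis genes, so passing that threshold set none of them apart.

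The called gene was Cxcl14, which was lower in replicate 2 by 2.33-fold. Its log2 ratio was -1.22 (-1.35 to -1.09, adjusted p = 2.09e-82, exact binomial test). Of the genes tested, 3.80% had a lower ratio and 8.31% a ratio at least as far from 0. Among the 13681 genes averaging 100 counts or more, 2.77% were called in either direction and 1.41% lower in replicate 2. The call held under every scaling and filter tried, with log2 ratios from -1.22 to -1.02.

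The other 4 genes differed by at most 1.22-fold (Ackr3). Ackr3 had a log2 ratio of 0.29 (0.11 to 0.47, adjusted p = 0.0023), Cxcl12 of 0.14 (0.04 to 0.24, adjusted p = 0.00778) and Cx3cl1 of 0.12 (0.05 to 0.18, adjusted p = 0.000748), all by the exact binomial test. Cxcr4 had a log2 ratio of -0.19 (-0.31 to -0.07, adjusted p = 0.00305, exact binomial test), but its direction depended on the scale. It was 0.0067 (adjusted p = 0.947, exact binomial test) when counts were scaled by library totals and 0.11 as a ratio of coding TPM. On those scales the median log2 ratio was 0.193 over all genes tested and 0.148 over protein-coding genes, against -0.003 and -0.002 after TMM scaling, and by library totals 66.8% of calls were higher in replicate 2, against 52.7% after TMM scaling. Coding TPM also takes in the mean effective length of Cxcr4, which was 1302 nt in replicate 1 and 1175 nt in replicate 2. Across all genes tested the log2 ratio had an SD of 0.88, so these 4 genes lay well within the spread between the libraries.

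**Figure D3:**
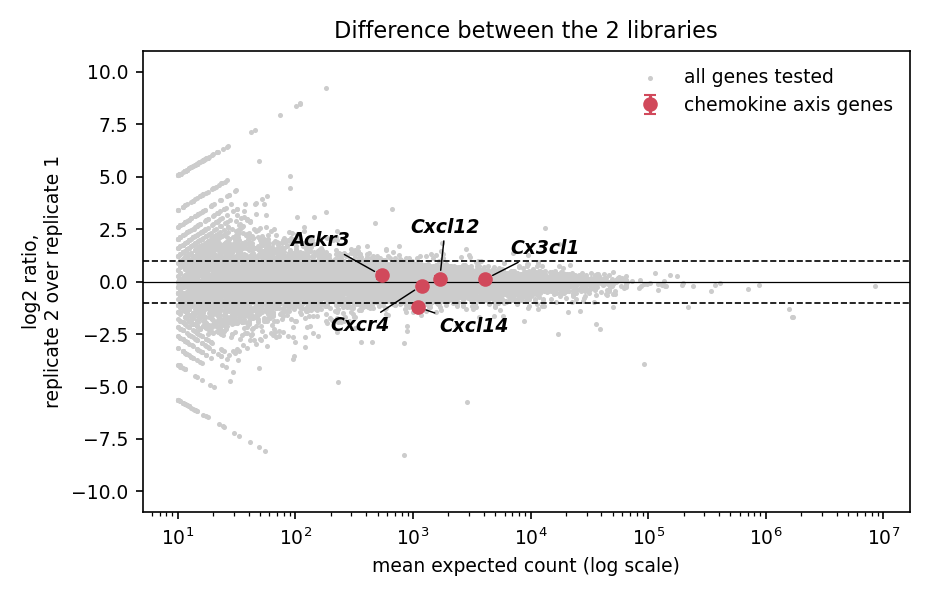
Log2 ratio of replicate 2 over replicate 1 after TMM scaling (y axis) against the mean expected count (x axis, log scale) for 17536 genes (grey) and the 5 axis genes (red, with 95% counting intervals that are mostly smaller than the points). Dashed lines mark a 2-fold difference, and Cxcl14, at -1.22, is the axis gene beyond them.

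Marker genes of cell types that the tissue can hold were read in the same way, since several of these cells are known sources of the axis genes. Interneuron, projection neuron and radial glia markers all reached 1 coding TPM in both libraries (15 of 15, 8 of 8 and 8 of 8), led by Sst and Npy, Neurod6 and Neurod2, and Fabp7 and Slc1a3. The labelled tissue thus held the RNA of forebrain neurons and glia. Markers of surrounding tissue were present as well.

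Meningeal fibroblasts are a known source of CXCL12. Of their 10 markers, 3 were called higher in replicate 2 (Col1a2 at 1.79, Col1a1 at 2.57 and Lum at 1.19) and none lower, against 5.43% of all genes called higher. The median ratio was 0.47, against -0.003 for all genes tested, and the summed level was 1516 and 2396 coding TPM. None of the markers was at 0, and Ptgds and Col1a2 were the most abundant. Ptgds alone stood at 1231 and 1660 coding TPM and so made up most of the sum. The markers that were not called had ratios from -0.16 (Crabp2) to 0.76 (Col3a1), with Slc6a13 at 0.03 and Ptgds at 0.26. Set against 4.88% of all genes called lower, endothelial markers had a median ratio of 0.29, with 1 of 10 called lower (Slco1a4, -1.24), and pericyte markers a median of 0.26, with 0 of 7 called. Their summed levels were 276 and 340, and 180 and 232 coding TPM, led by Cldn5 and Esam and by Vtn and Rgs5. Bone markers, from tissue outside the brain, had a median ratio of 0.94 with 2 of 5 called higher, Ibsp (2.77) and Runx2 (1.64). The most abundant were Ibsp and Alpl, and Alpl was not called (0.11). Both called bone markers averaged more than 100 counts, and 2.77% of genes averaging 100 counts or more were called in either direction. Among tested genes averaging under 100 counts, a class that held neither of them, 20.1% were called higher. The part of these cells in the ratios of Cxcl12 and Ackr3 was not tested.

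For Cxcl14, 6 lists had a median below 0. The lowest were blood leukocytes, choroid plexus (-0.51, 1 of 7 called lower, summed level 755 and 486 coding TPM, led by Ttr and Otx2) and oligodendrocyte precursors (-0.39, 0 of 5 called, led by Olig1 and Pdgfra). The others were radial glia and astrocytes (-0.16), microglia (-0.12) and projection neurons (-0.07). In the choroid plexus list, Ttr alone stood at 713 and 446 coding TPM and so made up most of the sum. Of the 7 genes of that list, 2 had ratios above 0, Otx2 (0.23) and Aqp1 (0.16). The leukocyte list had a median of -0.67 over 5 genes tested, with 2 called lower and 1 higher, and Elane, Ly6g and Cd3e were at 0 in both libraries; S100a8 and S100a9 were its most abundant genes. Interneuron markers, of cells among which some are known to express CXCL14, had a median of 0.33 with 1 of 15 called higher, and summed levels of 996 and 1063 coding TPM. Cajal-Retzius markers, of cells known to express CXCR4, had a median of 0.31 with 1 of 7 called higher, led by Reln and Calb2. Intermediate progenitor markers, led by Insm1 and Gadd45g, had a median of 0.21 with 0 of 5 called. The part of any of these cells in the ratio of Cxcl14 was not tested.

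Microglial markers stood beside the fractalkine pair. Their median ratio was -0.12 after TMM scaling. Of the 11, 2 were called lower (Trem2 at -1.19 and Aif1 at -1.07), against 4.88% of all genes. Among tested genes averaging under 100 counts, as Aif1 did, 17% were called lower. The summed level of the microglial markers was 266 and 279 coding TPM, led by C1qc and C1qb. On that scale the median log2 ratio of protein-coding genes was 0.148, so sums and TMM ratios can differ in direction. Cx3cr1 itself stood at 10.9 and 14.1 coding TPM with a log2 ratio of 0.22.

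**Figure D4:**
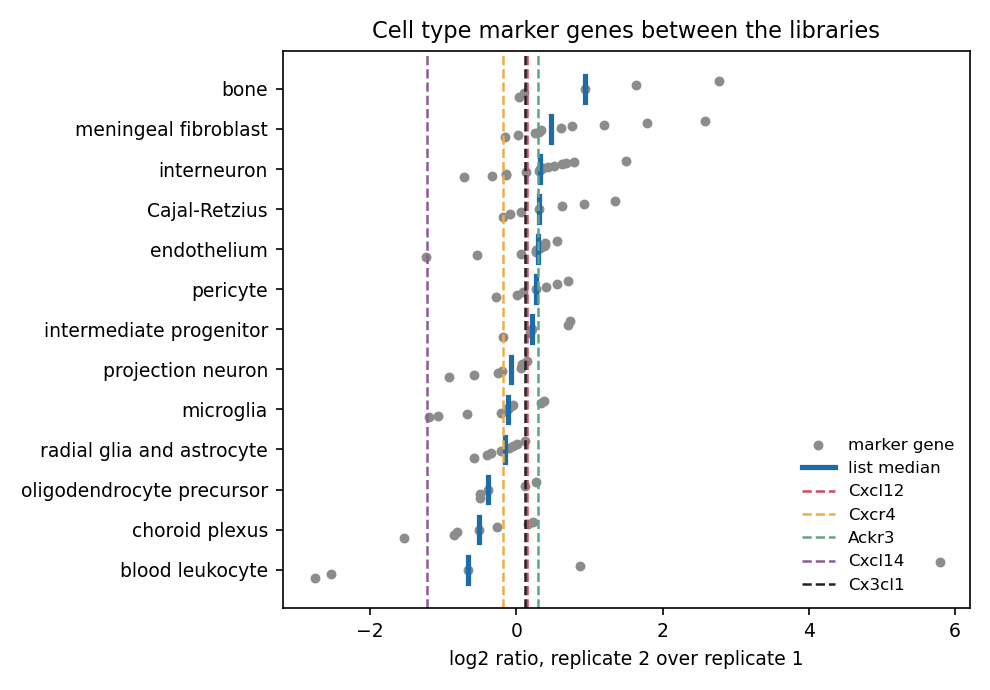
Log2 ratio of replicate 2 over replicate 1 (x axis) of each marker gene tested (grey points), by cell type list (rows, ordered by median), with a bar at each list's median and dashed lines at the ratios of the 5 axis genes. Bone (0.94) and meningeal fibroblast (0.47) have the highest medians and blood leukocyte (-0.67) and choroid plexus (-0.51) the lowest, while the line of Cxcl14 lies at -1.22, below every median.

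Among the chemokine ligand genes listed for this comparison, the axis ligands made up most of the transcript. The list was chosen by name and does not hold every chemokine gene, so shares and ranks apply to the listed genes. Of 35 chemokine ligand genes, Cx3cl1 ranked first by mean level, Pf4 the second at 33.4 ± 11.1 coding TPM (SD, n = 2), Cxcl14 the third and Cxcl12 the fourth. Pf4 encodes a chemokine of platelets and megakaryocytes. The 3 axis ligands held 71.7% of the summed level of the listed ligands in replicate 1 and 63.7% in replicate 2. Of the other 32 ligands, 6 reached 1 coding TPM in both libraries, led by Pf4, Ccl25 (5.13 ± 1.1, SD, n = 2) and Ccl28 (3.32 ± 0.311, SD, n = 2), and 12 had no count in either. Only 11 of the 32 had enough counts to test, of which 3 were called higher and 2 lower in replicate 2. Calls were common among thinly counted genes: 37.1% of tested genes averaging under 100 counts were called, against 10.3% of all.

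Among the 23 chemokine receptor genes listed, Cxcr4 ranked first by mean level. It was followed by Ackr1 at 29.8 ± 2.39 coding TPM (SD, n = 2), Cx3cr1 at 12.5 ± 2.28 (SD, n = 2) and Ackr3. Ackr1 encodes an atypical receptor of endothelium and red cells that binds many chemokines, and its counts were not whole, so reads were divided with another feature. Cxcr4 and Ackr3 held 51.3% and 48.9% of the summed level of the listed receptors. Of the other 21 receptors, 3 reached 1 coding TPM in both libraries and 7 had no count in either. Of 10 tested, 2 were called higher and 3 lower in replicate 2, all 5 of them with 113 counts or fewer in either library, where the same share of 37.1% applies.

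**Figure D5:**
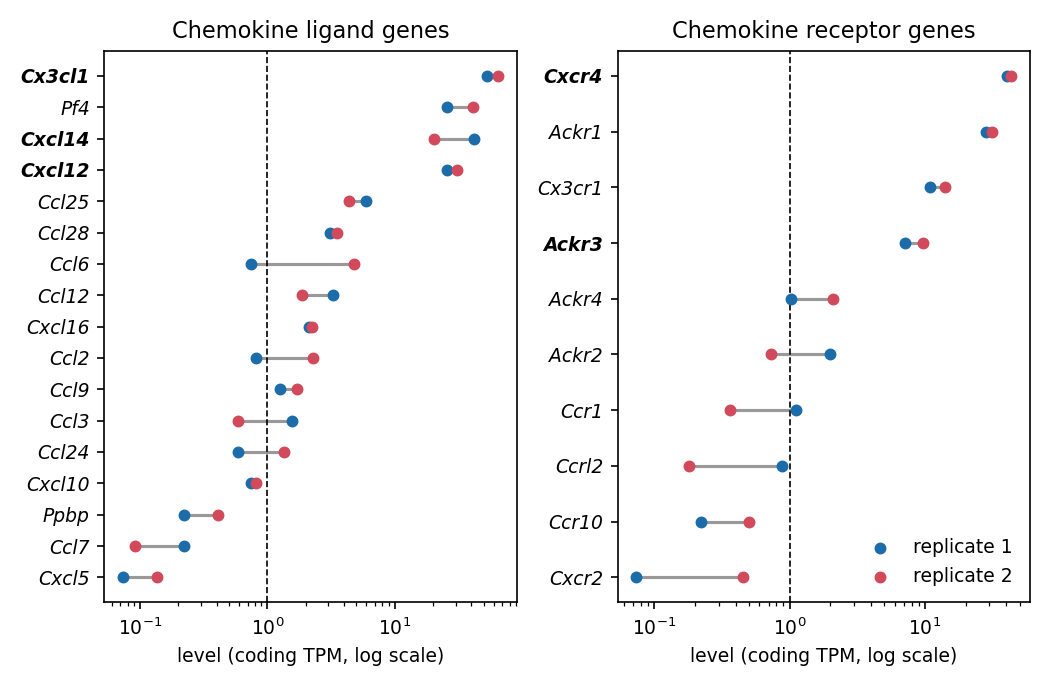
Level in coding TPM (x axes, log scale) of listed chemokine genes with values above 0 in both libraries. Shown are 17 ligand genes (left) and 10 of the 11 receptor genes (right). Replicate 1 is in blue and replicate 2 in red, with the axis genes in bold and a dashed line at 1 coding TPM. Levels drop from 28.2 for Cxcl12 to 5.13 for Ccl25 among ligands, and Cxcr4 and Ackr1 lead the receptors at 41.7 and 29.8.

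Genes that act downstream of chemokine receptors were mostly abundant. Of 25 signalling genes, 23 reached 1 coding TPM in both libraries and 1 of 25 was called, against 10.3% of all genes tested and 2.77% of those averaging 100 counts or more. At any fold 15 of 25 passed the adjusted p, near the share of 65.0% over all genes. The called gene was Pik3r5, a regulatory subunit of a phosphoinositide kinase, at 12 and 84 counts (log2 ratio 2.48). Among tested genes averaging under 100 counts, as Pik3r5 did, 20.1% were called higher. The most abundant were the G-protein subunits Gng2 at 479 ± 65.4, Gnao1 at 288 ± 25.4 and Gnb1 at 251 ± 9.83 coding TPM (SD, n = 2).

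Enzymes that act on the ligands or on the matrix that holds them were present throughout, with 10 of 10 at 1 coding TPM in both libraries. ADAM10 and ADAM17 shed CX3CL1 from the membrane, and their transcripts stood at 19.8 ± 1.76 and 16.8 ± 1.06 coding TPM (SD, n = 2), below that of Cx3cl1. DPP4, which cleaves and inactivates CXCL12, was near the lower end, with Dpp4 at 1.88 ± 0.158 coding TPM (SD, n = 2). The heparan sulfate enzymes Ndst1 and Hs6st1, whose product binds CXCL12, led the list at 73.8 ± 15.8 and 54.8 ± 5.6, followed by the matrix protease Mmp14 at 30.1 ± 9.1 coding TPM (SD, n = 2). Of these 10, 1 was called, against 10.3% of all genes tested and 2.77% of those averaging 100 counts or more. It was the protease Mmp9, at 325 and 912 counts (log2 ratio 1.21).

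Other partners of the receptors were measured too. MIF is a further ligand of CXCR4 and of CD74, HMGB1 forms a complex with CXCL12, and opioid peptides and adrenomedullin are bound by ACKR3. All 6 genes of this list reached 1 coding TPM in both libraries. None of the 6 was called, against 10.3% of all genes tested. With under 2-fold differences, 2 of the 6 passed the adjusted p, against 65.0% of all genes at any fold. They were Hmgb1 (log2 ratio -0.38, adjusted p = 2.52e-136, exact binomial test) and Penk (-0.43, adjusted p = 4.31e-07, exact binomial test). Mif stood at 648 ± 69.1, Hmgb1 at 367 ± 35.4, Penk at 38.5 ± 0.033 and Cd74 at 2.0 ± 0.119 coding TPM (SD, n = 2). Mif and Hmgb1 have near-identical copies in the genome, and their counts were not whole in replicate 2 (for Hmgb1 in both libraries), so their levels are uncertain.

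Promoters were searched for short motifs. RefSeq windows (GRCm38.p6) of 300 bases, from before to just after the annotated start, were found for 5 of 5 genes and searched on both strands for TATAAA, the core of the TATA box, and GGGCGG, the core of the GC box. These letters do not overlap each other, and both motifs were chosen after the sequences were seen. TATAAA occurred in 3 of 5 windows, against 13.6% of 32851 windows of that length, and GGGCGG in 5 of 5, against 35.7%. On the gene's strand, TATAAA began 30 bases before the start of Cxcr4, 8 before that of Ackr3 and 6 before that of Cx3cl1. The copy in Cxcr4 alone lay 40 to 15 bases before the start, where a TATA box acts, as did 1.99% of all windows on the gene's strand. The RefSeq start of Cx3cl1 lies 171 bases inside the GENCODE gene given above, and its window is not shown. For Cxcr4 and Ackr3 the 60 bases before the RefSeq start are given 5′ to 3′ on the gene's strand with TATAAA in capitals from chr1:128592300-128592359 (minus) and chr1:90203920-90203979 (plus).
Cxcr4: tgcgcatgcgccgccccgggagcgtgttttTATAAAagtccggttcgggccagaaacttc
Ackr3: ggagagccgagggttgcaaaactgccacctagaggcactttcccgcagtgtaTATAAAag

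Protein-coding genes closest to each axis gene in level were found by the distance between log2(coding TPM + 0.1) values over the 2 libraries, which describes likeness of level and nothing more. They were Alg14 and Lrrtm4 for Cxcl12, Coil and Pank2 for Cxcr4, Cdca8 and BC034090 for Ackr3, Med11 and Fam162a for Cxcl14, and Efr3b and Zfand3 for Cx3cl1. Within a distance of 0.5, Cxcl12 had 1765 genes, Cxcr4 1758, Cx3cl1 1555 and Ackr3 821. Cxcl14 had 87 such genes, the fewest of the 5, and Med11, the nearest, stood at 40.02 and 20.4 coding TPM.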

How the data were processed

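Forebrain RNA was measured in 2 libraries of 1 group. Per the text supplied with each sample, the authors quantified each library alone on mm10 with GENCODE M4. The sources used here do not give the aligner, the quantifier or the confidence level of the TPM intervals; the column names are those RSEM writes. The deposited expected counts divide shared reads between features and were rounded. TPM as deposited is scaled over all features, including spike-ins and short noncoding RNAs. Deposited FPKM served as an alternative, the deposited isoform percentages give transcript shares, and the deposited TPM interval bounds (treated as a score) gave the intervals.

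Of 43346 genes, 42462 (98.0%) matched GENCODE M21, on the same assembly, by identifier; unmatched genes held 0.152 and 0.140% of counts. Protein-coding genes held 70.6 and 78.4% of counts. TPM was multiplied by 7.38 and 4.54 to give coding TPM. TMM factors came from edgeR 4.0.16 over genes averaging 10 counts or more, and DESeq2 1.42.0 gave other size factors, in R 4.3.3. edgeR's common biological coefficient of variation was 25.6%. Ratios had 0.5 added to each count and an exact binomial test, in Python 3.11.15 with scipy 1.17.1, since 1 group allows no quasi-likelihood test. The code was run on counts simulated with sampling noise alone. That simulation leaves out the further spread between these libraries, so it cannot show how the test behaves on them. Coding sequences were read from the M21 transcript sequences, with genome positions from the M21 annotation, and promoters from RefSeq.

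Named genes were the axis genes, the 3 most abundant of each pathway list, the 2 most abundant of each marker list, called meningeal, endothelial and microglial markers, Cx3cr1, Mif, Cd74, Dpp4, Adam10 and Adam17, the 2 nearest genes in level, and transcripts with at least 10% of a gene's TPM. Cxcl12-204, Pik3r5, Mmp9, Runx2, Aqp1, Col3a1, Crabp2 and Slc6a13 were named after their values were seen. The genes and lists were chosen with earlier results of these data known. 1 further gene that meets this rule is not reported here.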

Additional observations from a re-analysis of the deposited data

How the results depend on the processing

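Of 160 values under alternatives, 140 kept their side of the threshold or moved by less than 1 SD between the libraries (counts by less than 1.5 times), 18 moved by more and 2 changed sign. With 2 libraries, leaving 1 out moves a level, TPM ratio or transcript share by no more than that SD, whatever its value. Those values were therefore counted as kept by design. For Cxcl14, leaving 1 library out gave a level of 20.3 to 42.0. Cxcl14/Cxcl12 was then 0.659 to 1.64 and Cxcl14/Cxcr4 0.469 to 1.05, both crossing 1. Both changes of sign were the Cxcr4 ratio, 0.0067 by library totals and 0.11 as a ratio of coding TPM, an alternative added after seeing the data. The 1807 genes called became 379 with at least 100 counts, 1099 with protein-coding genes only and 3431 at 1.5-fold. Deposited TPM, with its other denominator, gave mean levels of 5.13 for Cxcl12, 7.485 for Cxcr4, 1.545 for Ackr3, 5.08 for Cxcl14 and 10.68 for Cx3cl1. Counts over annotated length gave 0.744 for Cxcl12/Cxcr4 and 2.10 for Cx3cl1/Cxcl12. Posterior mean shares were 96.5% for Ackr3-201 and 98.3% for Cx3cl1-201. Other ligands at the level threshold numbered 11 at 0.5 coding TPM, 1 at 5 coding TPM and 1 at a deposited TPM of 1, against 6. Other receptors numbered 5 at 0.5 coding TPM, and 4 to 5 with either replicate left out, against 3. Receptor partners numbered 3 at a deposited TPM of 1, against 6. The cause of these moves was not tested, beyond the change of threshold or denominator itself. No paired analysis was possible because both libraries belong to 1 group, and the ratio between libraries has no value without either of them. Of tested genes averaging under 100 counts, 37.1% were called, against 2.77% of those above.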

Other observations

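Chemokine genes outside the axis differed between the libraries at low counts. Of the other receptors, Ccr9 (1 and 31 counts) and Cxcr2 (2 and 31 counts) were called higher in replicate 2, and Ackr2 (113 and 44), Ccr1 (61 and 22) and Ccrl2 (37 and 9) lower. Among ligands, Ccl6 (19 and 84 counts), Ccl2 (10 and 30) and Ccl24 (13 and 33) were called higher, and Ccl25 (91 and 53) and Ccl3 (18 and 7) lower. These genes were named after their values were seen.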
